A study of Mus musculus with 9 samples.

Results

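The nuclear-encoded subunits of the mitochondrial respiratory chain were followed in mouse retina under white LED light. Members were chosen by gene symbol in the annotation of the Affymetrix array: symbols that begin with Ndufa, Ndufb, Ndufc, Ndufs, Ndufv, Uqcr, Cox4 to Cox8 or Atp5, together with Sdha, Sdhb, Sdhc, Sdhd and Cyc1, and without the Ndufaf assembly factors. This gave 83 members among 18194 genes with a probe set of their own, of which 36 belonged to complex I, 4 to complex II, 9 to complex III, 17 to complex IV and 17 to complex V. Each gene was represented by its brightest single-gene probe set over the 9 arrays. The intensity filter (a mean log2 signal of at least 5.91) was passed by 82 members and by 12762 genes in all. The member that did not pass was Cox7b2, a testis-type subunit of complex IV, which read 4.76, 3.66 and 4.16 in the controls, 2.62, -0.25 and 1.93 under 2954K light and 5.14, 2.15 and -0.34 under 7378K light.

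All mice were female BALB/c (spelled Babl/c in the labels), 10 weeks old, with no transgene or mutation named, and were kept for 14 days with 12 h on and 12 h off. Controls lived in a relatively dark environment of unstated illuminance, and the other groups lived under white LEDs of 1000 lx with a correlated colour temperature of 2954K (warm white) or 7378K (cold white). Each array held RNA from a pool of 3 right retinas, and each group had 3 arrays, named here by group and replicate number. P-values therefore measure the spread between pools, and nothing in the labels ties pools of different groups to each other.

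The respiratory chain sits in the inner mitochondrial membrane. Complex I takes electrons from NADH and complex II takes them from succinate. Both pass them to ubiquinone, from which complex III hands them to cytochrome c and complex IV to oxygen. Complexes I, III and IV pump protons, and complex V, the ATP synthase, uses the proton gradient to make ATP. Most subunits are encoded in the nucleus, and the remaining ones, encoded in mitochondrial DNA, are not covered by the symbols used here. Photoreceptors carry densely packed mitochondria in their inner segments and are among the most energy-demanding cells of the body. The symbols also take in a few genes whose product is not a subunit of the named complex: the protein of Ndufa4 is now placed in complex IV, Ndufa4l2 is its paralog, and Cox7a2l helps to join complexes into supercomplexes.

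The arrays differed in quality measures and in carried-over tissue. Controls 1 to 3 had 3' minus 5' log2 differences of 0.33, 0.20 and 0.42, averaged over the Gapdh and beta-actin control probe sets. This measure is large where signal from the 5' part of a transcript is low. Values were 2.78, 0.21 and 1.05 for 2954K 1 to 3, and 1.80, 1.67 and 1.55 for 7378K 1 to 3. Array 2954K 2 thus lay with the controls, and the other LED arrays lay above them. Retina markers were present on every array, and all 12 rod markers on the array passed the filter. Of 9 pigment epithelium markers, 8 passed too, although the labels describe retina freed of that layer. Of 9 microglia markers, 8 passed the limma test as higher in each LED group, and of 7 Muller glia markers 1 did (Aqp4). Of all genes, 1.03% passed as higher under 2954K light and 2.36% under 7378K light. The microglia markers Aif1 and C1qc had control means of 5.35 and 5.02, below the filter, and passed it through their higher LED means. The lens crystallin Crybb2 reached 14.75, 12.63 and 9.99 in the third array of the control, 2954K and 7378K groups and did not exceed 7.69 elsewhere.

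Many nuclear respiratory genes are known targets of the transcription factors NRF1 and GABP, the latter of the ETS family. Promoter windows from RefSeq (build GRCm38.p6, 250 bases before to 50 after a transcription start) were found for 67 of the 83 members. The NRF1 core GCGCATGC, searched on both strands, was present in 9 of the 67 members (13.4%), in 3.05% of all genes with a window and in 5.88% of those past the intensity filter. The ETS core CCGGAAGT, also on both strands, was present in 5 members (7.46%), against 4.31% of all genes and 8.65% of those past the filter. The ETS share of the members lay below that of the expressed genes, and the NRF1 share above it. The 170 bases before the start are shown for Cox6a1, with the NRF1 core, for Uqcr11, which had both cores, and for Atp5md and Cox8b, the members with the smallest p-values below, whose windows held neither. Capitals mark the matched cores. The NRF1 core overlaps its own reverse complement, so the run in Cox6a1 holds overlapping matches on both strands, and the NRF1 match of Uqcr11 crosses its start site and is not in the bases shown.
Cox6a1 (chr5:115348959-115349128, minus strand): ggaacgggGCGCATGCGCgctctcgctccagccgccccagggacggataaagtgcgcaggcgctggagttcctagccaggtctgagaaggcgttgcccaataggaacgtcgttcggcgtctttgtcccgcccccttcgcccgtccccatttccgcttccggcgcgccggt
Uqcr11 (chr10:80406822-80406991, minus strand): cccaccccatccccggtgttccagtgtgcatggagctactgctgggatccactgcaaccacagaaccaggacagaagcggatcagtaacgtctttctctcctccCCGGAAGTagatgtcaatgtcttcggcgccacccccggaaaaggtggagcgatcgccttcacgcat
Atp5md (chr19:47090648-47090817, minus strand): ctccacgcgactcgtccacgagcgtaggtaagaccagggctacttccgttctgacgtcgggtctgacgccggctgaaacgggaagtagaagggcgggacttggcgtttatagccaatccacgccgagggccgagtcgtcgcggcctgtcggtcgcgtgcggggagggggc
Cox8b (chr7:140900447-140900616, minus strand): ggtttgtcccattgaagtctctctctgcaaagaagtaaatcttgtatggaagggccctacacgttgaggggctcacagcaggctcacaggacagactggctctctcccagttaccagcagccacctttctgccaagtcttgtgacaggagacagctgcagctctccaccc

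No respiratory chain gene passed the test under either light in the main fit, while some of the alternative settings given below did call members. At a limma adjusted p under 0.05 (Benjamini-Hochberg over the 12762 genes), 0 of 82 members were called in 2954K against control, where 1.22% of all genes were called, and 0 of 82 in 7378K against control, where 3.52% were. At an unadjusted p under 0.05 there were 6 members (7.32%) under 2954K light, against 13.1% of all genes, and 17 members (20.7%) under 7378K light, against 22.6%. The smallest adjusted p was 0.132 (Cox8b) for 2954K and 0.0797 (Atp5md) for 7378K. The intervals bound the differences: for 76 of 82 members the 95% interval of the difference lay within 1 log2 unit of 0, that is 2-fold, in both comparisons, beside 83.8% (2954K) and 81% (7378K) of all genes. It lay within 0.5 log2 units for 49 members under 2954K light, beside 43.4% of all genes, and for 47 under 7378K light, beside 36.4%.

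The differences leaned slightly upwards in this fit, and the lean turned with the quality covariates described below. Under 2954K light 58 of 82 members lay above 0, with a median log2 difference of 0.11, beside 51.8% and 0.01 for all genes. Under 7378K light 56 of 82 lay above 0, with a median of 0.12, beside 56% and 0.04 for all genes. Leaving out 1 array at a time moved the 2954K median between 0.037 (without 2954K 1) and 0.24 (without 2954K 2). Both LED groups were set against the same controls, so these counts are not independent. With quantile normalisation of the arrays the members' medians were 0.05 and 0.06, and the median of all genes under 7378K light was also 0.06, slightly above that of the members. Groups did not overlap for 7 members under 2954K light (2 above the controls, 5 below; 8.54%), against 15.2% of all genes (7.68% above, 7.53% below). They did not overlap for 33 members under 7378K light (23 above, 10 below; 40.2%), against 36.4% of all genes. By direction the shares were 28% against 21.6% above and 12.2% against 14.8% below.

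**Figure D1:**
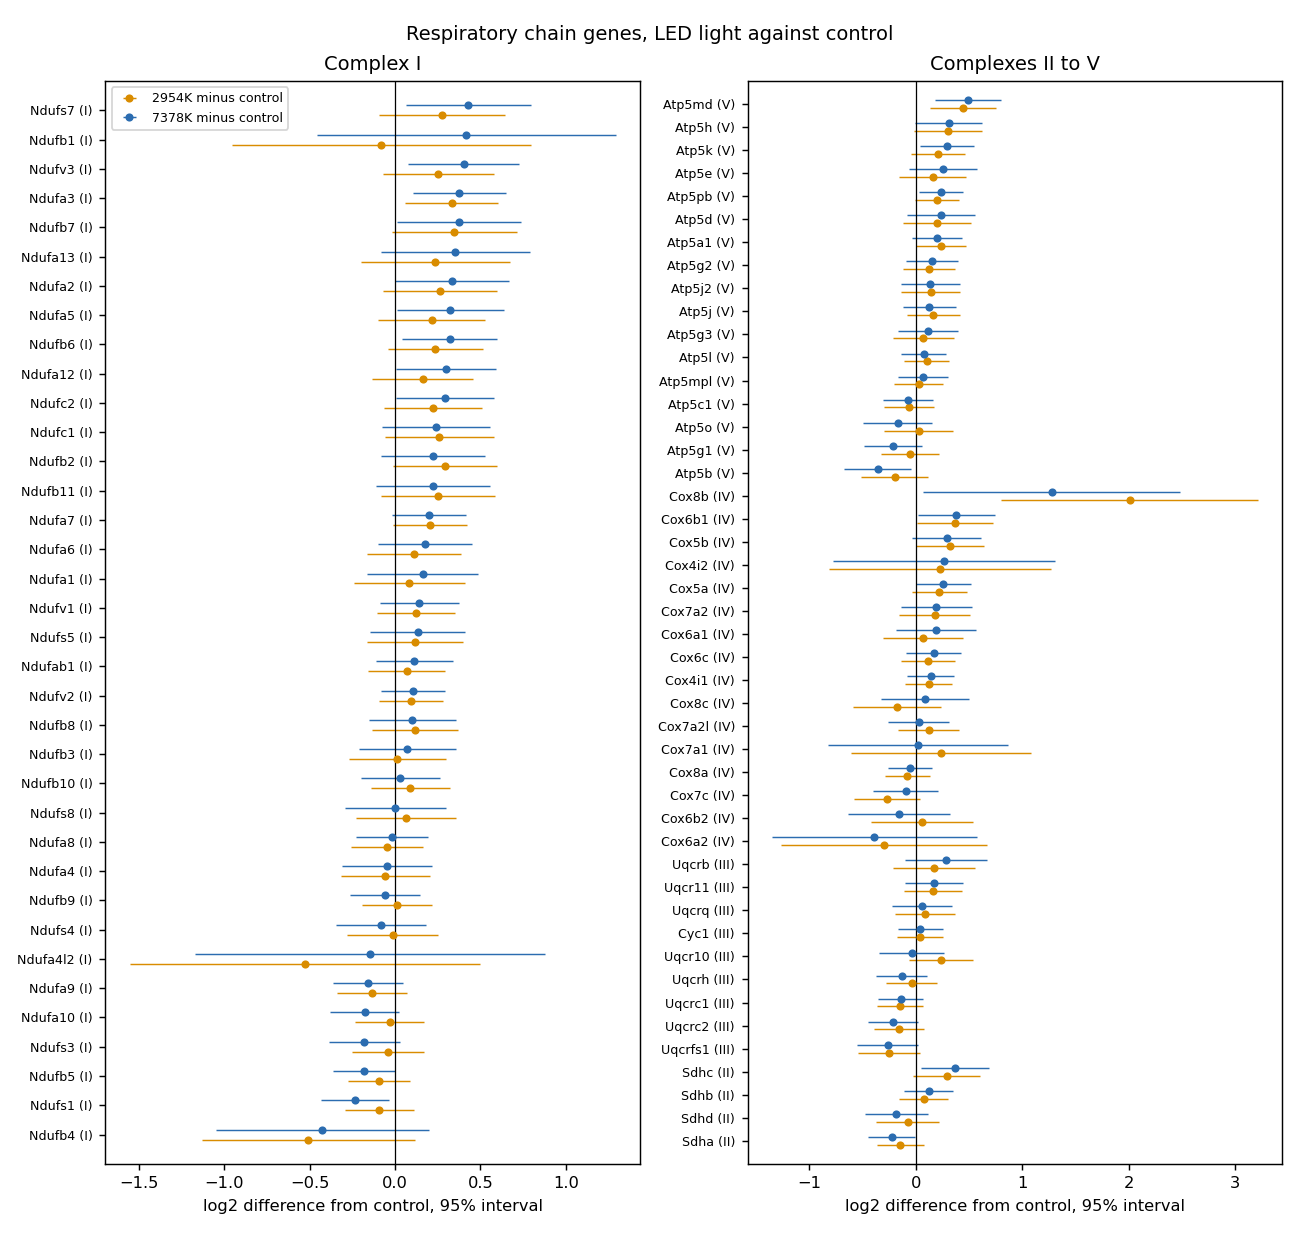
Log2 difference from control of the 82 members past the intensity filter, 2954K in orange and 7378K in blue, with 95% intervals from limma (3 arrays per group); complex in brackets, members of a complex ordered by their 7378K difference. Most points lie within 0.5 of 0; Cox8b stands apart at 2.01 and 1.28 with a wide interval.

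Complex I, the largest group, held both higher and lower members, with 25 of 36 above 0 in each light group and medians of 0.10 (2954K) and 0.14 (7378K). Ndufa3, an accessory subunit of the membrane part, read 12.30, 12.37 and 12.49 in the controls, 12.96, 12.44 and 12.76 under 2954K light and 12.79, 12.85 and 12.65 under 7378K light. All 7378K arrays lay above all controls, and of the 2954K arrays only 2954K 2 lay within the control range. Its difference was 0.33 (SE 0.13, adjusted p = 0.294) for 2954K and 0.38 (SE 0.13, adjusted p = 0.113) for 7378K. Ndufs7, an iron-sulfur core subunit near the ubiquinone site, had the largest difference of the complex under 7378K light. It read 11.92, 11.81 and 12.10, then 12.56, 11.75 and 12.35, then 12.36, 12.42 and 12.34, a difference of 0.43 (SE 0.17, adjusted p = 0.163) for 7378K and 0.27 for 2954K. Its other probe set gave -0.10 and -0.11, and with the dap covariate described below the 7378K difference was -0.13. Ndufv3, a small accessory subunit of the NADH-oxidising arm, differed by 0.40 (adjusted p = 0.145) and 0.25.

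Other complex I subunits, Ndufv1 apart, lay on the lower side. Ndufs1, the largest iron-sulfur core subunit, read 11.72, 11.69 and 11.72 in the controls, 11.54, 11.66 and 11.66 under 2954K light and 11.35, 11.55 and 11.54 under 7378K light. Neither LED group overlapped the controls, and the differences were -0.09 (adjusted p = 0.702) and -0.23 (adjusted p = 0.162). Ndufv1, the core subunit that binds NADH, differed by 0.12 and 0.14, and Ndufs4, an accessory subunit whose loss causes complex I deficiency, by -0.01 and -0.08. The sign of Ndufv1 depended on the probe set, as its others gave 0.21 and -0.30 under 2954K light and 0.275 and -0.27 under 7378K light. Ndufa10 differed by -0.03 and -0.18. Ndufb4 had the lowest difference of the complex under 7378K light, at -0.43, and -0.51 under 2954K light, but it was read by a dim probe set (7.37, 7.35 and 7.45 in the controls, 6.44, 6.79 and 7.41 under 2954K light, 7.23, 6.89 and 6.77 under 7378K light) with an SE of 0.29. None of these passed the test.

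Complex II has 4 subunits, of which 2 lay above 0 and 2 below in each light group by their brightest probe sets. Sdhc, one of its membrane anchors, read 11.15, 10.84 and 11.18 in the controls, 11.46, 11.002 and 11.57 under 2954K light and 11.43, 11.48 and 11.37 under 7378K light. The 7378K arrays lay above all controls, with a difference of 0.37 (SE 0.15, adjusted p = 0.165). Sdha, the flavoprotein that oxidises succinate, read 12.26, 12.41 and 12.42, then 12.16, 12.29 and 12.21, then 11.98, 12.30 and 12.13, a difference of -0.23 (SE 0.10, adjusted p = 0.208) with overlapping groups. Sdhb, the iron-sulfur subunit, differed by 0.12 and Sdhd, the other anchor, by -0.19 under 7378K light. These signs depended on the probe set: the next brightest probe sets of Sdhc, Sdha and Sdhd gave -0.06, 0.10 and 0.23. With all probe sets averaged Sdha differed by 0.19, but that average takes in a probe set below the filter (mean 2.87), which gave 1.35.

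Complex III had a median of 0.04 under 2954K and -0.04 under 7378K light, with 5 and 4 of 9 members above 0. Its lowest member was Uqcrfs1, the Rieske iron-sulfur protein, which read 11.76, 11.79 and 11.73 in the controls, 11.15, 11.73 and 11.64 under 2954K light and 11.52, 11.49 and 11.46 under 7378K light. The 7378K arrays were tightly grouped below the controls. The 2954K group also lay below them, with 2954K 2 close to the lowest control, and 2954K 1 was the lowest of all arrays. The differences were -0.25 (SE 0.13, adjusted p = 0.439) and -0.27 (SE 0.13, adjusted p = 0.255). Uqcrb, a small ubiquinone-binding subunit, was the highest member at 0.28 under 7378K light, but its other probe set gave -0.02. Cyc1, the cytochrome that passes electrons to cytochrome c, differed by 0.04 in both groups, and the core protein Uqcrc1 by -0.15 and -0.14.

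Complex IV had medians of 0.12 (2954K) and 0.15 (7378K), with 12 of 16 measured members above 0 in each. Cox6b1, which links the monomers of the dimeric enzyme, read 12.79, 12.75 and 12.95 in the controls, 13.50, 12.73 and 13.36 under 2954K light and 13.24, 13.27 and 13.11 under 7378K light. The 7378K arrays lay above all controls, while 2954K 2 was the lowest of the 9 arrays. The differences were 0.37 (SE 0.16, adjusted p = 0.373) and 0.38 (SE 0.16, adjusted p = 0.200). Cox5a and Cox5b, subunits that surround the catalytic core, differed by 0.22 and 0.32 under 2954K light and by 0.26 and 0.29 under 7378K light. Cox4i1, the regulatory subunit that binds adenine nucleotides, differed by 0.12 and 0.14. Moving Ndufa4 to this complex left the medians at 0.12 and 0.14.

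Complex V showed the smallest adjusted p of any member under 7378K light and also one of the lower catalytic genes. Atp5md, which encodes a small subunit of the membrane part, read 12.80, 12.33 and 12.26 in the controls, 12.97, 12.72 and 13.01 under 2954K light and 12.81, 13.05 and 12.99 under 7378K light. The 7378K arrays lay above the controls, by little in the case of control 1. The differences were 0.44 (SE 0.14, adjusted p = 0.206) and 0.49 (SE 0.14, adjusted p = 0.0797), which is 1.36-fold and 1.41-fold. Without control 1 the 7378K difference of Atp5md was 0.66 with an adjusted p of 0.0273. Atp5b, the catalytic beta subunit, read 13.86, 14.10 and 13.88, then 13.37, 14.00 and 13.87, then 13.60, 13.58 and 13.57. All 7378K arrays lay below all controls, and the differences were -0.20 (SE 0.14, adjusted p = 0.580) for 2954K and -0.36 (SE 0.14, adjusted p = 0.167) for 7378K. Atp5a1, the alpha subunit with which it forms the catalytic head, differed by 0.24 and 0.20, and Atp5c1, the rotating gamma subunit, by -0.06 and -0.07. The genes of the membrane-ring c subunit, Atp5g1, Atp5g2 and Atp5g3, encode the same mature protein, and their 7378K differences were -0.21, 0.15 and 0.11. In bulk retina, fewer cells of a type and less RNA per cell cannot be told apart. Of the 12 rod markers, 4 passed the test as lower under 7378K light (Prph2, Cngb1, Cnga1 and Rom1), beside 1.16% of all genes. Their differences were -0.80, -0.71, -0.49 and -0.41. Of the 12, 3 lay above 0, the highest being Rcvrn at 0.19. The summed rod signal (log2) ranged from 17.52 to 17.71 under 7378K light and from 17.67 to 17.91 in controls, so the groups overlapped. With the Gapdh and beta-actin covariate described below none of the 4 passed, and the differences were then -0.94, -0.53, -0.41 and -0.41. With the dap covariate none of the 4 passed either. The calls of Prph2 and Rom1 ended when any control or 7378K array was left out (lowest limma adjusted p 0.0516 and 0.0605). That of Cnga1 ended without control 2 or 7378K 1, and that of Cngb1 stayed with each single array left out. The part of rod content in the lower members was not tested.

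**Figure D2:**
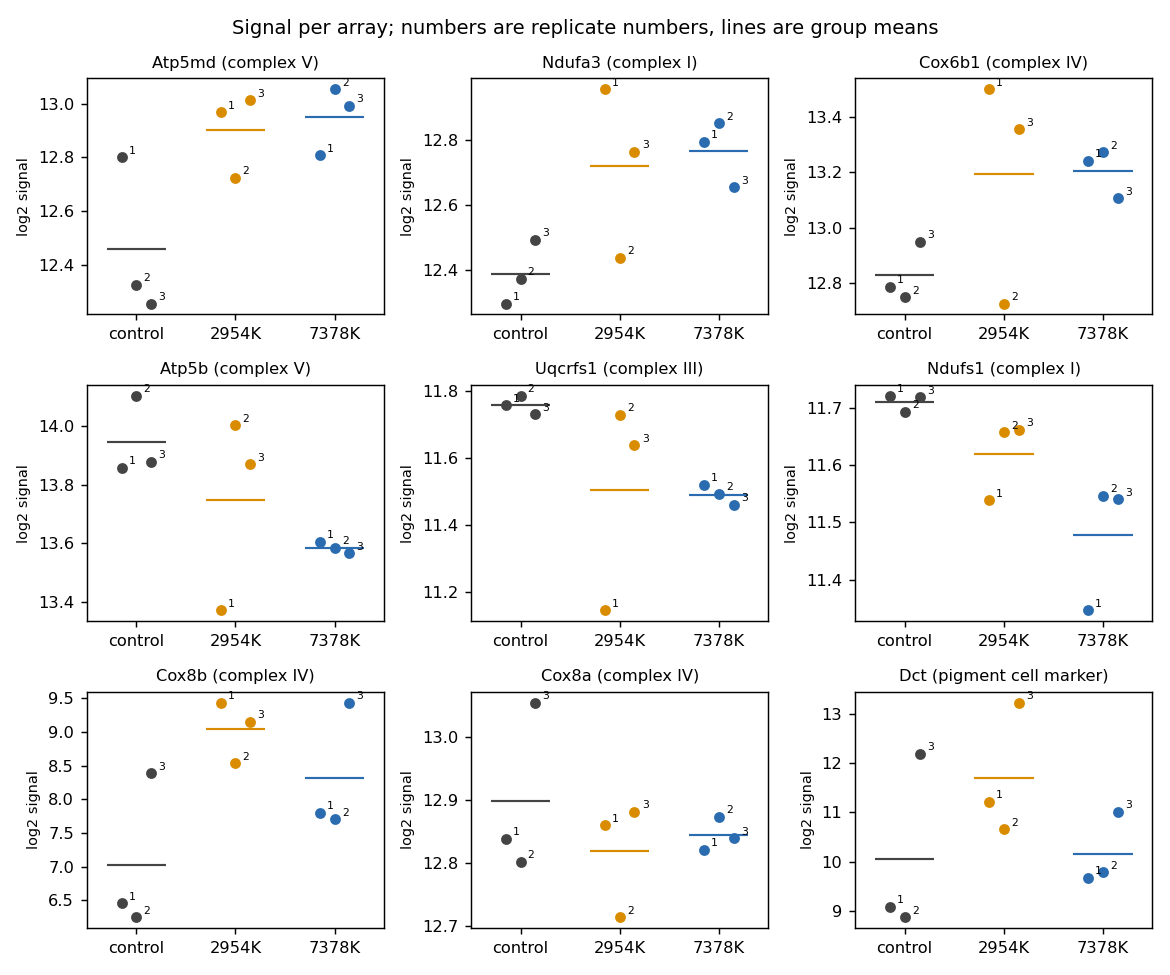
Log2 signal of each array for 8 members and the pigment cell gene Dct; points are single arrays with their replicate number, lines are group means (3 arrays each), and each panel has its own axis that does not start at 0. In Ndufa3, Cox6b1, Atp5b and Uqcrfs1, array 2954K 2 lies with or near the controls and 2954K 1 farthest from them; in Cox8b and Dct the third control array is the highest control.

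The 2 light groups were not told apart by these genes. In 7378K against 2954K, 0 of 82 members and 0 of 12762 genes (0%) passed at an adjusted p under 0.05 in limma, and at an unadjusted p under 0.05 there were 0 members against 4.07% of all genes. Of the members 47 lay above 0, beside 56.3% of all genes, and 3 had groups that did not overlap (3.66%), beside 8.56%. The members' median difference was 0.01, beside 0.03 for all genes, and the complexes' medians ranged from -0.02 (complex II) to 0.02 (complex I). The 95% interval lay within 1 log2 unit of 0 for 76 of 82 members, beside 86.9% of all genes, and within 0.5 units for 68, beside 51.2%. Cox7c, which lay below the controls on every 2954K array (8.58, 8.68 and 8.61 against 8.39, 8.24 and 8.43), was the member whose 7378K values lay wholly above its 2954K values (8.44, 8.55 and 8.59), with a difference of 0.17 (95% interval -0.13 to 0.48). Uqcr10, a small subunit of complex III, had the smallest unadjusted p, 0.0715, with a difference of -0.28.

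The members' level ran beside the 3' minus 5' difference of the arrays. The median deviation of the 82 members from the control mean was -0.05, -0.05 and 0.10 in the controls, 0.26, -0.10 and 0.18 under 2954K light and 0.14, 0.17 and 0.06 under 7378K light. The highest array, 2954K 1, was also the array with the largest 3' minus 5' difference, and the lowest, 2954K 2, was the LED array that had the smallest. Control 3 lay above 7378K 3, so the groups overlapped. The mean of the 3 array medians was 0.11 (SD 0.19) under 2954K light and 0.12 (SD 0.06) under 7378K light, against 0.00 (SD 0.09) in controls. When this difference was added to the fit as a covariate, the members' medians became -0.016 for 2954K and -0.045 for 7378K, with 35 and 23 of 82 above 0 and 0 called. In that fit the medians of all genes were -0.0095 and 0.0096, with 6157 and 6616 of 12762 above 0, and 0.799% and 1.07% called. With the same difference of the dap spike-in, an RNA added for labelling, the medians were -0.016 and -0.14, with 35 and 19 of 82 above 0 and 0 called. All genes then had medians of -0.0086 and 0.0003, with 6178 and 6385 above 0, and 0.917% and 0.603% called. The 7378K arrays and the controls did not overlap in this difference, so between these groups alone it cannot be told apart from the light.

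**Figure D3:**
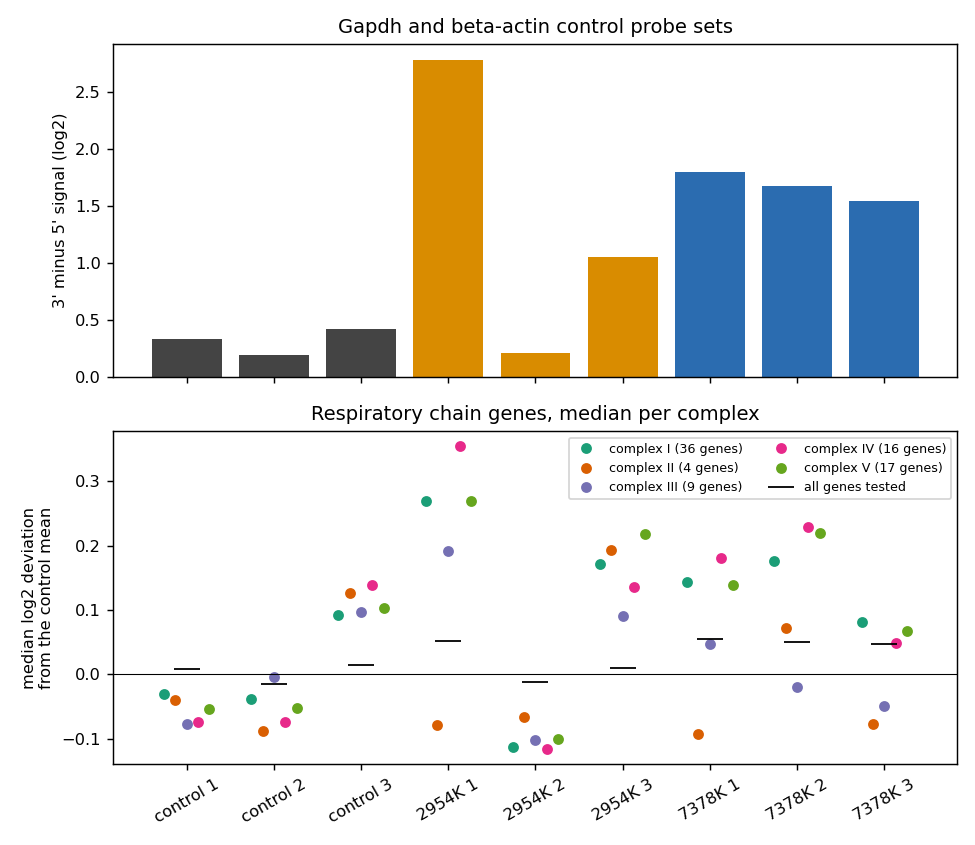
Upper panel, 3' minus 5' log2 difference of the Gapdh and beta-actin control probe sets on each array; lower panel, median log2 deviation from the control mean of the members of each complex, with all genes tested as a dash. Complexes I, IV and V are highest on 2954K 1, where the upper bar is 2.78, and lowest of the LED arrays on 2954K 2, where it is 0.21.

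Arrays of 1 light group differed among themselves in the same genes. Within the 2954K group, array 1 minus array 2 shares no array with 7378K against control. This pair was chosen after the values were seen, as the arrays of that group with the largest and the smallest 3' minus 5' difference. The difference between these pools, which had the same treatment, had the sign of the 7378K difference in 70 of 82 members (85.4%), beside 69.2% of all genes. In array 1 minus array 2, 62 members lay above 0, beside 6844 of 12762 genes. Under 7378K light it was 56 members, beside 7150 genes. A set that leans upwards in both agrees in sign more often, so the 2 shares have unlike baselines. Across members the Pearson correlation of array 1 minus array 2 with the 7378K difference was 0.67 (n = 82, and 0.70 without Cox8b), beside 0.37 across all genes. The points share arrays and probe design and are not independent. The median of array 1 minus array 2 was 0.37 over the members and 0.04 over all genes. These 2 arrays were also the highest and the lowest of the 9 in the members' median. The size of their difference follows from the choice, and the agreement in sign is not independent of it. The median was 0.40 in complex I, 0.48 in complex IV and 0.36 in complex V, 0.29 in complex III and -0.01 in complex II. Array 2954K 2 was the lowest 2954K array in 61 of 82 members, and in 4814 of 12762 genes. Atp5b and Uqcrfs1 were the members with the most negative values apart from the dim Ndufa4l2, and they were also among the lower members under 7378K light.

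**Figure D4:**
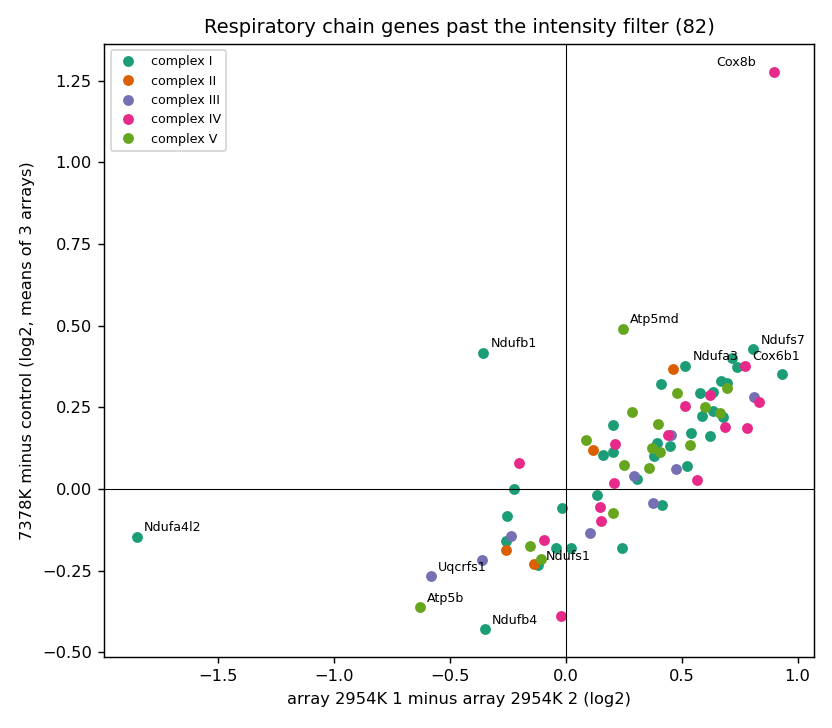
Each point is 1 of 82 members, coloured by complex; the horizontal axis is the log2 difference between arrays 2954K 1 and 2954K 2, pools under the same light, and the vertical axis is the 7378K difference from control (means of 3 arrays). The points rise from lower left to upper right (Pearson r 0.67), and 70 of 82 have the same sign on both axes.

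The count of calls rested on single arrays of the 2954K group. Without 2954K 2, 14 members passed as higher in 2954K against control (17.1%, beside 7.03% of all genes). They were Ndufa2, Ndufa3, Ndufa5, Ndufb2, Ndufb7, Ndufb11, Ndufc1, Ndufs7, Ndufv3, Sdhc, Cox5b, Cox6b1, Atp5h and Atp5k, and both remaining 2954K arrays had a high 3' minus 5' difference. In 7378K against control, where the array enters through the shared spread alone, 9 members then passed as higher (11%, beside 9.5% of all genes). Without 2954K 1, 8 members passed in 7378K against control, 6 higher and 2 lower (9.76%, beside 11.9% of all genes), and the lower ones were Atp5b and Uqcrfs1. No member passed when control 2, 2954K 3 or any 7378K array was left out.

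Probe sets of the same gene often disagreed. Of the members, 46 had more than 1 single-gene probe set past the filter, and in 32 of them (69.6%) the probe sets had mixed signs in 7378K against control, beside 58.8% of all such genes. Among probe sets with a mean of 11 or more it was 20 of 35 members (57.1%), beside 51.9% of all genes. For 2954K these shares were 58.7% of members beside 56.6% of all genes, and 42.9% beside 48.3% for the brighter probe sets.

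Some of the catalytic and core genes were among them. Uqcrc2, a core protein of complex III, differed by -0.22 in 7378K against control by its brightest probe set and by 0.21 by the other. The probe sets lay apart on every LED array except 2954K 2, where both lay at the control mean. Atp5a1 differed by 0.20 by its brightest and by -0.51 by its next brightest probe set. In the same order Sdha differed by -0.23 and 0.10, and Sdhc by 0.37 and -0.06. For Cox5b the 4 brightest probe sets gave 0.29, 0.32, -0.06 and 0.27, from the brightest down. The widest gap belonged to Ndufa12, an accessory subunit of complex I, with 0.30 by its brightest probe set and -1.14 by its dimmest, at 9.72, 10.15 and 9.62 in the controls, 8.71, 9.12 and 8.17 under 2954K light and 8.49, 8.78 and 8.82 under 7378K light. By that probe set both LED groups lay below all controls, and 2954K 2 stood with the other LED arrays. When _s_at and _x_at probe sets were left out, it stood for Ndufa12 and passed in limma. The adjusted p was then 0.0313 for 2954K and 0.0198 for 7378K.

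**Figure D5:**
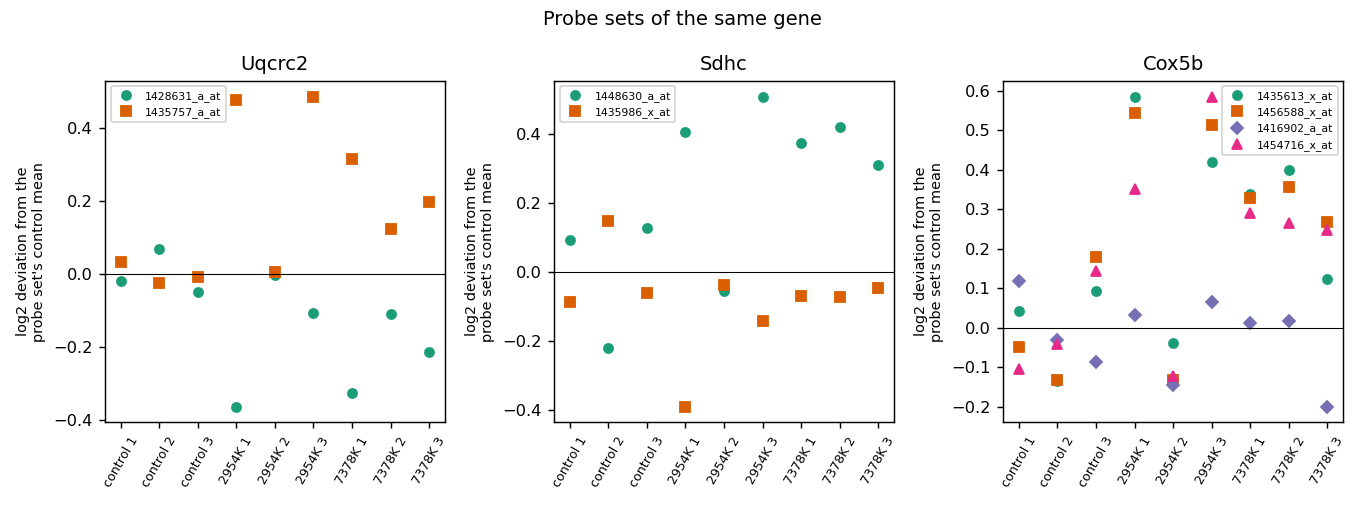
Log2 deviation of each array from the control mean of the same probe set, for probe sets of Uqcrc2, Sdhc and Cox5b with a mean signal above 9; the legends list them from the brightest down. In Uqcrc2 and Sdhc the probe sets separate on the LED arrays other than 2954K 2, and in Cox5b 3 probe sets lie above 0 on those arrays while the one drawn as diamonds lies closer to 0 or below it.

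Several complex IV subunits have paralogs known from other tissues. Cox8b, the isoform of heart and skeletal muscle, had the largest difference of any member. It read 6.46, 6.25 and 8.38 in the controls, 9.43, 8.53 and 9.15 under 2954K light and 7.80, 7.70 and 9.43 under 7378K light. All 2954K arrays lay above all controls, the lowest of them only just, and the 7378K group overlapped them through control 3. The difference was 2.01 (SE 0.55, 95% interval 0.80 to 3.21, adjusted p = 0.132) for 2954K and 1.28 (SE 0.55, adjusted p = 0.198) for 7378K. Without control 3 Cox8b passed in both comparisons, at 2.68 (adjusted p = 0.0106) and 1.95 (adjusted p = 0.0394). With the replicate number as a block in limma, it passed under 2954K light (adjusted p = 0.0177), although the numbers were not taken to pair the arrays.

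The Cox8b values were set beside those of pigment cell and muscle genes. Dct, which encodes a melanin-synthesis enzyme, read 9.09, 8.88 and 12.19 in the controls, 11.21, 10.66 and 13.22 under 2954K light and 9.68, 9.79 and 11.01 under 7378K light. Like Cox8b it was highest in the third array of the control and 7378K groups, but in the 2954K group Cox8b was highest in array 1 and Dct in array 3. Dct differed by 1.65 under 2954K and by 0.11 under 7378K light, and did not pass. It was singled out after the values were seen, and the pigment epithelium markers did not agree among themselves. Within the 2954K group Tyrp1 was highest in array 3, as Dct was. Rpe65, Ttr, Rgr, Rdh5, Lrat and Slc26a7 were lowest in that array. Of the 8 markers past the filter, 8 lay above 0 under 2954K and 5 under 7378K light, and 0 passed. The highest differences were 1.71 (Tyrp1, 2954K) and 0.72 (Slc26a7, 7378K). Rpe65, the retinoid isomerase of that layer, read 10.34, 9.73 and 11.67 in the controls, 11.23, 11.83 and 9.92 under 2954K light and 9.78, 9.85 and 11.34 under 7378K light, so it was lowest in 2954K 3 within its group. Its differences were 0.41 and -0.26, and neither passed. The summed signal of the 9 pigment epithelium markers ranged from 13.76 to 15.49 in controls, 14.97 to 15.61 under 2954K and 14.35 to 15.39 under 7378K light (log2), with 8 of 9 past the filter. Of 17 skeletal muscle markers, 12 were below the filter. Their summed signal ranged from 10.42 to 12.24 in controls and did not exceed 10.61 in the LED arrays. The part of neighbouring tissue in the Cox8b values was not tested.

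The other paralogs had smaller differences. Cox8a, the general isoform, read 12.84, 12.80 and 13.05 in the controls and differed by -0.08 and -0.05. Cox8c, described from testis, differed by -0.18 and 0.08. The muscle-type Cox6a2 and Cox7a1 and the lung-type, oxygen-sensitive Cox4i2 lay near the filter, with means of 6.44, 6.41 and 6.12, and SEs of 0.44, 0.39 and 0.48 that left their differences loosely bounded. Cox4i2 read 5.64, 5.33 and 6.91 in the controls, 6.65, 5.81 and 6.08 under 2954K light and 6.05, 5.87 and 6.75 under 7378K light. It was highest in control 3, 2954K 1 and 7378K 3 of their groups, as Cox8b was, with differences of 0.22 and 0.27. Cox6a2 was highest in control 3, at 7.66 against 5.73 to 6.66 on the other arrays, as the summed signal of the muscle markers was. The general isoforms Cox6a1 and Cox7a2 differed by 0.07 and 0.18 under 2954K and by 0.19 each under 7378K light. Ndufa4 differed by -0.06 and -0.05, and its dim paralog Ndufa4l2 by -0.53 and -0.15 with an SE of 0.47. Cox6b2, another testis-type paralog, differed by 0.06 and -0.16, and Cox7a2l by 0.12 and 0.03.

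The promoter cores shown above did not separate the members. Of the measured members with a window, the 13 with either core had a median difference of 0.07 under 2954K and 0.12 under 7378K light, and the 53 with neither had 0.12 and 0.13. Cox6a1 and Uqcr11 differed by 0.19 and 0.17 under 7378K light.

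Genes around the chain were read from lists of assembly factors, regulators and the citrate cycle. Of 44 measured assembly factors, 0 passed under 2954K light, and 1 rose and 1 fell under 7378K light, beside 2.36% of all genes higher and 1.16% lower. The medians were -0.06 and -0.02. Ndufaf6, needed to build complex I, rose from 8.75, 8.93 and 8.88 in controls to 9.85, 9.46 and 9.35 (difference 0.70, SE 0.15, adjusted p = 0.0266), and its 2954K values were 9.35, 9.55 and 9.54. Uqcc3, an assembly factor of complex III, fell from 11.34, 11.42 and 11.26 to 10.84, 10.95 and 10.90 (difference -0.45, SE 0.11, adjusted p = 0.0416). In both genes the 7378K arrays did not overlap the controls. With the Gapdh and beta-actin covariate neither passed (0.79, adjusted p = 0.104, for Ndufaf6 and -0.38, adjusted p = 0.289, for Uqcc3). Of 18 regulators of mitochondrial biogenesis, 0 passed under 2954K light and 1 fell under 7378K light, beside the same 1.16% of all genes lower. This was Esrrb, an oestrogen-related receptor known to support rod energy metabolism, at 11.97, 11.83 and 12.13 in controls and 10.83, 11.20 and 10.80 under 7378K light (difference -1.03, SE 0.23, adjusted p = 0.0289). Its 2954K values of 11.95, 11.60 and 10.84 spanned both, and with the dap covariate it did not pass (-1.29, adjusted p = 0.156). The calls of Uqcc3 and Esrrb ended when any control or 7378K array was left out (lowest adjusted p 0.0611 and 0.0549), and that of Ndufaf6 without control 1, control 2, 7378K 1 or 7378K 2 (lowest 0.0687). Without the intensity trend in the fit none of the 3 passed (0.0574 for Ndufaf6, 0.0975 for Uqcc3 and 0.0918 for Esrrb), and with probe sets averaged Uqcc3 (0.0504) and Esrrb (0.0958) did not. The 7378K differences of Ppargc1a, a coactivator of respiratory genes, Nrf1, Gabpa, Esrra and Tfam were -0.06, -0.04, 0.15, -0.04 and -0.10, and none passed. Of 17 genes of the citrate cycle list, which includes cytochrome c, 0 passed in either comparison, with medians of -0.08 and -0.0007. Cycs, cytochrome c itself, differed by 0.01 and 0.04.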

How the data were processed

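The deposited values are log2 signals per probe set; MAS5 and affy are named in the submitters' processing notes, without version, role or order. Checked on the values, each array had been scaled by the authors so that 2 raised to the value has a 2% trimmed mean of 500. Background and summary steps are not given in the sources used here. Of 45101 probe sets, 34958 carried 1 symbol in the platform annotation and 932 carried several and were not used. The filter was the 40th percentile of probe set means. Limma 3.58.1 in R 4.3.3 (with data.table, version 1.17.8) fitted 1 mean per group to 9 arrays (6 residual degrees of freedom, eBayes with an intensity trend), with adjustment over all genes within each of 3 comparisons, and was tested on simulated data. Precision is limited by the number of arrays, and detection calls were not used. Figures used matplotlib 3.10.9 and pandas 2.3.3 in Python 3.11.15. The members, lists and tests were chosen with earlier results of these data known. Named members were the called ones, or else the 3 with the smallest p in each direction of a comparison, the extremes of each complex under 7378K light, and a panel of catalytic subunits and paralogs. Probe set examples and the split of complex I were chosen after values were seen. Tried alternatives were normalisation, filter, probe set choice, quality covariates, the intensity trend, a replicate block and leaving out arrays.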

Additional observations from a re-analysis of the deposited data

How the results depend on the processing

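Of 19 alternative settings, those that moved the members' calls or medians are given here. Without the _s_at and _x_at probe sets, 1 member was called in each LED comparison, Ndufa12 by another probe set (-1.16 and -1.14). Without the third array of every group 1 was called under 2954K (Cox8b, 2.63). Leaving out 1 array at a time gave 0 to 14 called under 2954K, 0 to 9 under 7378K and 0 in 7378K against 2954K. The 1 member called without control 1 was Atp5md, and the 1 called without control 3, in either comparison, was Cox8b. For settings with 1 member called, the share of all genes called is not given here, so these calls stand without that background. The members' median ranged from 0.037 to 0.24 under 2954K and from 0.087 to 0.19 under 7378K light. With the Gapdh and beta-actin covariate the medians were -0.016 (2954K) and -0.045 (7378K). With the dap covariate they were -0.016, -0.14 and, for 7378K against 2954K, -0.12.

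Deviations of same-numbered arrays of different groups correlated at 0.061 to 0.33 (median 0.11), against -0.27 to 0.092 (median -0.084) for other pairs. Not every same-numbered pair exceeded 0.1, so the numbers were not taken to pair the arrays, and control 1 correlated more with 2954K 2 (0.092) than with 2954K 1 (0.0872). With the replicate number as a block, 1 member was called under 2954K light (Cox8b, adjusted p = 0.0177) and 0 in the other comparisons.

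Single values were compared between settings for the 42 members named by the rule given above. A direction was compared where the 95% interval excluded 0, as for 16 values of these members. With all probe sets of a gene averaged, Cox5b turned to -0.0091 under 2954K and Sdha to 0.19 under 7378K light. Both averages take in a probe set below the filter. That of Cox5b (mean 3.18) gave -1.22 under 2954K light, and that of Sdha (mean 2.87) gave 1.35 under 7378K light. Without _s_at and _x_at probe sets, Cox5b turned to -0.016 and Atp5a1 to -0.35 under 2954K light. With the dap covariate Ndufv3 (-0.064), Ndufs7 (-0.13), Cox6b1 (-0.14) and Atp5b (0.078) turned under 7378K light. Of 2319 values of the 42 members, 247 had another sign than reported, among them these 8, and the others had intervals that included 0. A further 22 became called. Ndufa12 was not one of the 42, and its 7378K interval was 0.0025 to 0.59. Without _s_at and _x_at probe sets Ndufa12 turned to -1.14 (limma adjusted p = 0.0198). Signals above 13, in 20 members, lie near the array maxima of 14.96 to 15.42, where changes may be read too small.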

Other observations

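Within complex I, 6 core subunits (those shared with the bacterial enzyme) and 28 accessory subunits were measured apart from Ndufa4 and Ndufa4l2. The core genes had a median difference of 0.08 under 2954K and 0.05 under 7378K light, and the accessory genes 0.12 and 0.18. Of the core genes 4 of 6 lay above 0 in both light groups, and of the accessory genes 21 of 28. The groups span each other, from -0.23 (Ndufs1) to 0.43 (Ndufs7) among core genes under 7378K light.

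Among assembly factors, Tmem126b, which takes part in building the membrane arm of complex I, had the lowest 7378K difference, -1.68 (SE 0.58, adjusted p = 0.122 in limma). It read 8.28, 8.60 and 7.59 in controls, 5.67, 8.66 and 6.87 under 2954K light and 6.70, 6.58 and 6.16 under 7378K light, so that 2954K 2 lay with the controls and 2954K 1 was the lowest array. Coa4, a factor for complex IV, had the highest, 1.004 (SE 0.34, adjusted p = 0.113), at 5.40, 5.76 and 5.93 in controls, 6.48, 6.17 and 6.35 under 2954K light and 6.81, 6.398 and 6.90 under 7378K light. No array of either LED group reached down to its controls. Of all genes, 7.68% under 2954K and 21.6% under 7378K light lay wholly above their controls. The control mean of Coa4, 5.70, lay below the filter value of 5.91, which the gene passed through its higher LED means. Its separation is therefore tied to the filter and to its choice as the highest of the list.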
